A study of Mus musculus with 15 samples.

Results

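The iron handling genes are 10 mouse genes of iron storage, import, export, heme breakdown and iron sensing: Fth1, Ftl1, Tfrc, Slc11a2, Slc11a1, Slc40a1, Cp, Hmox1, Aco1 and Ireb2. They were listed by name, without a rule on their values but with earlier results of these data known, and all 10 were found among the 36528 gene identifiers counted in every sample. The samples were cells sorted by green fluorescence from the cortex of mice carrying the Cx3cr1::GFP reporter, which marks microglia, the resident macrophages of brain tissue. Of 15 samples, 9 were PS2APP, a transgenic model of amyloid deposition in Alzheimer's disease, and 6 were non-Tg animals without those transgenes. Of the PS2APP samples 4 were from mice of 14 months and 5 from mice of 15 months, and of the non-Tg samples 2 were of 14 months and 4 of 15 months. The reporter was shared by both groups. The labels used here give neither the sex of the mice, the promoters of the PS2APP transgenes nor whether each sample was a separate mouse, so the p-values below speak for these samples alone, whose spread may in part be technical. The log2 ratio of Xist to Y-linked reads was -3.73 in non-Tg 12, -3.26 in non-Tg 13 and -4.33 in PS2APP 14, a male pattern. In the other samples it was 11.6 to 15.0, so sex looked mixed and unevenly split between the genotypes.

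Cells keep iron in ferritin, a shell built of a heavy chain (Fth1) and a light chain (Ftl1), take it up bound to transferrin through the transferrin receptor (Tfrc), and release it through ferroportin (Slc40a1), the known cellular iron exporter. Macrophages also recover iron from heme, and microglia in the aging brain and around amyloid plaques are known to hold ferritin and iron. When iron is scarce, the iron regulatory proteins encoded by Aco1 and Ireb2 bind short RNA hairpins, the iron-responsive elements. Binding in a 5′ UTR blocks translation and binding in a 3′ UTR protects the messenger RNA from decay. Control through a 5′ UTR element therefore acts on protein output, which RNA counts do not measure.

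The hairpins are a sequence feature found here in 4 of the 10 genes, and are shown for that reason. The UTRs of the GENCODE M21 annotation of GRCm38 were searched on the transcript strand for a C, 5 bases, the loop CAGTGN and 5 bases that pair with those before the loop, G with T allowed. Of the 10 genes, 3 held a match in the 5′ UTR (Fth1, Ftl1 and Slc40a1) and 1, Tfrc, in the 3′ UTR, where it held 4. Over all genes with an annotated UTR, 28 of 20873 (0.134%) held a match in the 5′ UTR and 127 of 21669 (0.586%) in the 3′ UTR. Each sequence below is 30 bases of DNA, 5′ to 3′ on the transcript strand, with the loop in capitals:
Fth1 5′ UTR, chr19:9982732-9982761, plus strand: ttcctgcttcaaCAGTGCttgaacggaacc
Ftl1 5′ UTR, chr7:45459778-45459807, minus strand: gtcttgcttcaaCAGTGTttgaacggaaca
Slc40a1 5′ UTR, chr1:45925464-45925493, minus strand: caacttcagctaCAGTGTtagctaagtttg
Tfrc 3′ UTR, chr16:32631219-32631248, plus strand: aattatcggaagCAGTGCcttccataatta
Tfrc 3′ UTR, chr16:32631598-32631627, plus strand: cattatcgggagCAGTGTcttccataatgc
Tfrc 3′ UTR, chr16:32631663-32631692, plus strand: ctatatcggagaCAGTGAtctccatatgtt
Tfrc 3′ UTR, chr16:32631710-32631739, plus strand: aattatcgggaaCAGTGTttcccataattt
The 2 ferritin elements carry the same 5 bases on each side of the loop. In the 5′ UTRs the matches began at base 93 of 224 in Fth1, base 84 of 253 in Ftl1 and base 96 of 319 in Slc40a1. In the 2461-base 3′ UTR of Tfrc they began between bases 892 and 1383. A match is a description of the letters. No match, as in the other 6 genes, says only that no stretch of the searched UTRs met the whole rule, pairing included. A hairpin with an unpaired base among those 5, or in a transcript not searched, would be missed. The search therefore does not show that those 6 genes lack an iron-responsive element.

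Total counts ran from 3664742 to 8455237 per sample, with a median of 5867848. The microglial identity of the sort was visible in its markers: the summed level of 9 microglial genes was 23326 to 34827 CPM (counts scaled to library size by TMM) in PS2APP and 30046 to 39875 CPM in non-Tg samples. Of 12 genes of plaque-associated microglia, 10 were higher in PS2APP in the test across all genes. A group of 4 libraries (PS2APP 1 and 4, non-Tg 9 and 13) stood apart in 10 immediate early genes, with summed levels of 4007 to 16704 CPM against 237 to 398 CPM in the other 11.

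By counted reads per unit of length, Fth1 was by far the highest of the 10 genes, and the transferrin receptor and Aco1 the lowest. On the scale of the deposited RPKM, reads scaled by library and gene length, the median level of Fth1 over the 15 samples was 201.0 RPKM (116 to 443), which ranked it 37 of 36528 genes by mean. Ferroportin followed at 15.5 RPKM (9.19 to 22.3), then Slc11a1, the phagosomal metal transporter of macrophages, at 15.1 RPKM (9.34 to 20.9). Every Fth1 value lay above every Slc40a1 value, while Slc40a1 exceeded Slc11a1 in only 8 of 15 samples, so the order of those neighbours was not separated by the spread. Ftl1 stood at 8.22 RPKM (5.14 to 16.1) and Ireb2 at 7.57 RPKM (3.42 to 10.6), with Ftl1 the higher in 9 of 15 samples. The place of Ftl1 in this order, and its distance from Fth1, are uncertain. Of its 50-base windows 90.6% also occur in transcripts of other genes, and only uniquely aligned reads were counted. Cp, a ferroxidase, was at 2.99 RPKM (1.25 to 4.19), Hmox1 at 2.45 RPKM (0.980 to 4.82) and Slc11a2 at 2.07 RPKM (1.35 to 11.9). The lowest were Tfrc at 1.66 RPKM (0.803 to 3.14) and Aco1 at 1.65 RPKM (0.817 to 2.49), and Tfrc exceeded Aco1 in 7 of 15 samples. Apart from Fth1 over Slc40a1, the one neighbouring step seen in all 15 samples was Ireb2 over Cp.

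**Figure D1:**
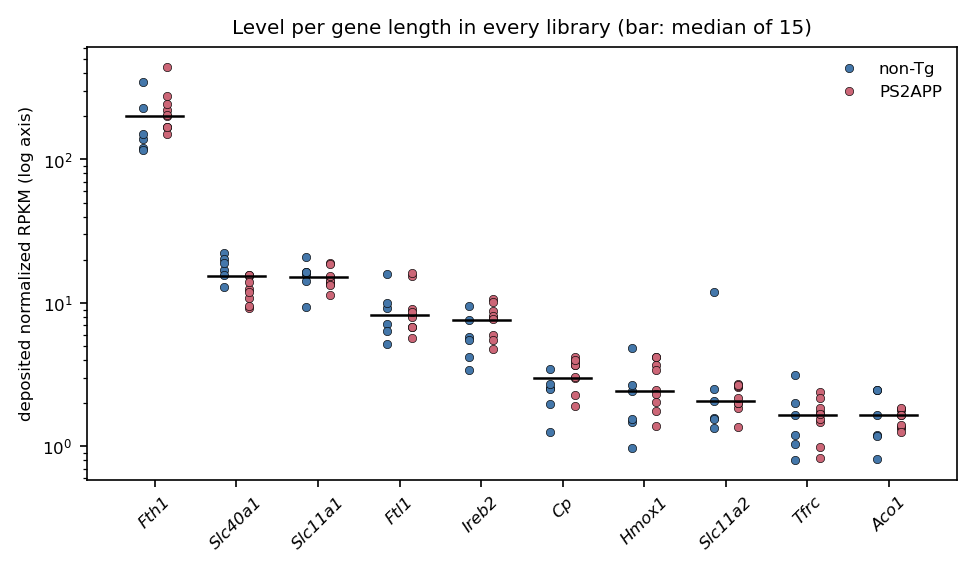
Level of each iron handling gene in each of the 15 samples, as deposited RPKM on a log axis, with genes ordered by their median (bars). Fth1 (median 201.0 RPKM) lies above all the others without overlap, and the ranges of the remaining neighbours overlap. The Ftl1 level is uncertain, because much of its transcript sequence is shared with other genes and only uniquely aligned reads were counted.

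The heavy to light chain ratio needs care, because ferritin genes have near-identical copies. The ratio of Fth1 to Ftl1 RPKM was 14.2 to 40.8 in PS2APP (median 25.0) and 13.02 to 34.8 in non-Tg samples (median 19.9), with wide overlap. Of the 50-base windows of the Ftl1 transcript, 90.6% also occur in transcripts of 17 other genes, most of them in Ftl1-ps1 (73.4%), against 6.59% of those of Fth1. The authors' counts are of uniquely aligned reads, per the file headers, so reads of such windows may go uncounted; the Ftl1 level is uncertain for that reason, and the part of these copies in it was not tested. Of the 5 pseudogenes that carry a ferritin symbol in RefSeq, the count files list Ftl1-ps2 alone, with 4 reads over all PS2APP and 1 over all non-Tg samples. Copies under other names, such as Gm6977, which shares windows with Fth1, were not looked up, so their reads are not given.

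None of the 10 genes was called between PS2APP and non-Tg samples. On simulated data the genotype test recovered 36% of 2-fold and 75% of 4-fold changes, so smaller differences could go uncalled. In edgeR's quasi-likelihood fit of genotype and age, 0 of 10 had a Benjamini-Hochberg adjusted p below 0.05, against 1.18% of the 13994 genes tested (165, of which 134 or 0.958% were higher and 31 or 0.222% lower in PS2APP). At an unadjusted p below 0.05 the count was 2 of 10, Slc40a1 (lower) and Cp (higher), against 11.7% of all genes tested. DESeq2 and limma-voom also called 0 of 10, with 2 and 3 at an unadjusted p below 0.05. Of all 13994 genes they called 390 and 200, with 1858 and 1751 at an unadjusted p below 0.05. Without the filter on low counts 0 of 10 were called and 5 had an unadjusted p below 0.05 (also Fth1, Slc11a2 and Ireb2), against 12.7% of the 25970 genes then tested. In none of the 10 did all samples of one genotype lie above all of the other, as they did in 0.636% of genes. All 10 genes had passed the filter on low counts. Their median log2 fold change was 0.07, beside -0.02 over all genes tested. In these bulk samples fewer cells of a type and less RNA per cell cannot be told apart.

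**Figure D2:**
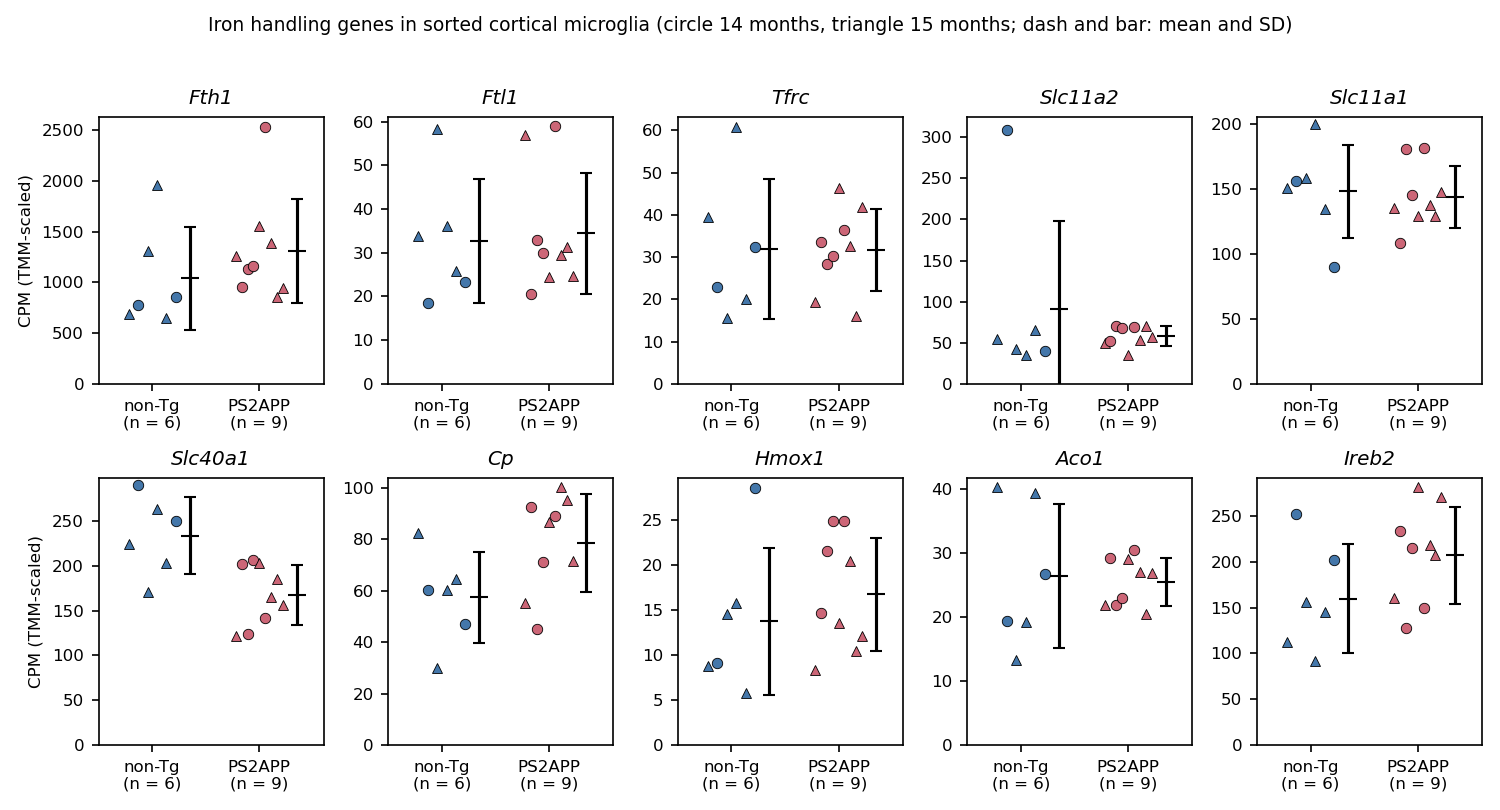
CPM of each iron handling gene by sample in PS2APP (n = 9) and non-Tg (n = 6), circles for 14 months and triangles for 15 months, with the mean and SD of each group; the lower SD bar of Slc11a2 in non-Tg samples is cut at 0. The groups overlap in every panel, Slc40a1 is the gene whose PS2APP samples all lie below the non-Tg median, and 1 non-Tg sample stands far above the rest in Slc11a2.

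Ferritin heavy chain (Fth1, chr19:9980600-9985111 of GRCm38.p6), the subunit that oxidises incoming iron, was at a lowest, median and highest level of 857, 1167 and 2532 CPM in PS2APP and of 650, 821 and 1956 CPM in non-Tg samples. All 9 PS2APP samples lay above the non-Tg median, but only PS2APP 8 lay above the highest non-Tg sample, non-Tg 11, so the groups overlapped. The log2 difference was 0.33 ± 0.26 (SE; 95% interval -0.21 to 0.87; edgeR quasi-likelihood, adjusted p = 0.673). The highest sample of each group weighed on it: without PS2APP 8 it was 0.19 ± 0.21 (adjusted p = 0.803), and without non-Tg 11 it was 0.60 ± 0.23 (adjusted p = 0.285). Ferritin light chain (Ftl1, chr7:45457944-45459886), which serves mineral formation in the shell, was at 20.6, 30.0 and 59.0 CPM in PS2APP and 18.6, 29.8 and 58.2 CPM in non-Tg samples. These ranges coincided almost completely, and the log2 difference was 0.13 ± 0.28 (edgeR adjusted p = 0.909). For Ftl1 an increase of up to 0.72 or a decrease of up to 0.45 on the log2 scale lay within the 95% interval (-0.45 to 0.72). With a score of neuronal markers as a further covariate the log2 differences were -0.03 for Fth1 and -0.42 for Ftl1. That score did not overlap between genotypes (at most 3.42 in PS2APP, at least 3.64 in non-Tg samples), so this fit cannot tell it apart from genotype.

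Of the importers, the transferrin receptor (Tfrc, chr16:32608896-32632794) was at 16.2, 32.7 and 46.5 CPM in PS2APP and at 15.7, 27.7 and 60.9 CPM in non-Tg samples (lowest, median and highest). The PS2APP range lay inside the non-Tg range, and the log2 difference was 0.01 ± 0.29 (95% interval -0.59 to 0.61; edgeR adjusted p = 0.995). Slc11a1 (also called Nramp1, chr1:74375014-74386057), which moves divalent metals out of the phagosome, was at 108, 137 and 182 CPM in PS2APP and at 89.6, 153 and 200 CPM in non-Tg samples. Its log2 difference was -0.04 ± 0.17 (95% interval -0.39 to 0.31; adjusted p = 0.968), the second narrowest interval of the 10 after that of Slc40a1.

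Slc11a2 (chr15:100387898-100424209) encodes DMT1, the transporter that carries ferrous iron out of endosomes, and 1 library set its difference. It was at 35.6, 57.1 and 70.5 CPM in PS2APP and at 35.4, 48.2 and 308 CPM in non-Tg samples, and 8 of 9 PS2APP samples lay above the non-Tg median. The value of 308 CPM belonged to non-Tg 5, where 1113 reads were counted. With all samples the log2 difference was -0.51 ± 0.32 (edgeR adjusted p = 0.577), and without non-Tg 5 it was 0.25 ± 0.21 (adjusted p = 0.696), the opposite sign. In non-Tg 5 Slc11a2 was 4.37 times its highest level in the other 14 samples, which was the largest such ratio among the 3901 tested genes at 50 CPM or more in that library. Counted genes within 100000 bases of it with a mean of at least 1 CPM lay within or below the range of the other samples. Mettl7a1 was at 62.9 CPM (40.5 to 93.9 CPM in the other 14) and Letmd1 at 76.2 CPM (43.8 to 91.3 CPM). Csrnp2 was at 6.93 CPM (7.05 to 23.5 CPM) and Tfcp2 at 2.77 CPM (5.18 to 28.2 CPM). Neighbours at lower levels were not examined. Counts per gene do not show which Slc11a2 transcripts the reads came from.

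On the export side, ferroportin (Slc40a1, chr1:45908070-45926532) had the smallest p of the 10 genes and was lower in PS2APP, though it did not pass the test across all genes. It was at 121, 165 and 206 CPM in PS2APP and at 171, 237 and 290 CPM in non-Tg samples (lowest, median and highest). All 9 PS2APP samples lay below the non-Tg median, 5 of them below the lowest non-Tg sample, and 4 of 6 non-Tg samples lay above the highest PS2APP sample. The fold was 0.711 (95% interval 0.567 to 0.893), a log2 difference of -0.49 ± 0.16 (edgeR unadjusted p = 0.00519, adjusted p = 0.173), beside 5.95% of all genes lower at an unadjusted p below 0.05. The difference was negative in every alternative run, -0.65 to -0.33, and its lowest adjusted p was 0.0865, with DESeq2. Slc40a1 was also among the less variable genes between samples of a group, with a coefficient of biological variation of 23.2% where the median gene had 38.4% and 7.99% of genes had less. Slc11a1, at a similar RPKM, was close to it, with 23.8% and 9.75% of genes lower. These shares are over all genes tested, and genes of like level were not compared separately.

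Markers of other cells were compared between genotypes as well, and some of them differed. The summed level of 10 neuronal markers was 60.2 to 226 CPM in PS2APP and 238 to 449 CPM in non-Tg samples, without overlap, and 2 of the 8 tested were called lower. Astrocyte markers summed to 327 to 648 CPM in PS2APP and 481 to 1121 CPM in non-Tg samples; of the 8 tested, Gfap, an astrocyte filament protein, was called higher (mean 15.4 against 3.66 CPM) and the glutamate transporter Slc1a2 lower (244 against 492 CPM). Endothelial and mural markers summed to 143 to 322 CPM and 143 to 316 CPM, with Flt1 called higher and Pecam1 lower of 9 tested. Choroid plexus markers summed to 14.0 to 34.7 CPM and 10.5 to 432 CPM, with Ttr and Enpp2 called lower of 3 tested. None of the 9 microglial markers was called, but all 9 had negative log2 differences, with a median of -0.29. Border-associated macrophages, which surround vessels and line the meninges, had summed markers of 70.2 to 269 CPM and 38.6 to 241 CPM, and 0 of their 9 markers were called. No marker of these lists was at 0 in all samples. Oligodendrocyte markers summed to 122 to 274 CPM in PS2APP and 192 to 783 CPM in non-Tg samples. Of the 7 tested, 0 were called and 2 had positive log2 differences, with a median of -0.65. With the neuronal score as a covariate the log2 difference of Slc40a1 was -0.33 (edgeR adjusted p = 1), and 13 genes in all were called. The score did not overlap between genotypes, so that fit cannot tell neuronal marker level and genotype apart. The part of these other cells in the Slc40a1 difference was not tested.

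Cp (chr3:19956933-20009750), ceruloplasmin, a ferroxidase that works with ferroportin on iron leaving the cell and is also made by astrocytes, was the other gene with an unadjusted p below 0.05, and it was higher in PS2APP. It was at 44.9, 86.6 and 100.2 CPM in PS2APP and at 29.9, 60.1 and 82.4 CPM in non-Tg samples. Of the PS2APP samples 7 of 9 lay above the non-Tg median and 5 above the highest non-Tg sample. The fold was 1.39, a log2 difference of 0.47 ± 0.22 (95% interval 0.02 to 0.92; edgeR unadjusted p = 0.0406, adjusted p = 0.397), beside 5.73% of all genes higher at an unadjusted p below 0.05. The difference was positive in every alternative run, and leaving out single libraries gave 0.34 to 0.58. The summed astrocyte markers had a median of 491 CPM in PS2APP and 725 CPM in non-Tg samples, with Gfap called higher and Slc1a2 lower as given above; the part of astrocytes in the Cp difference was not tested.

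Hmox1 (chr8:75093618-75100593), heme oxygenase, which opens the heme ring and frees its iron, was at 8.30, 14.6 and 24.8 CPM in PS2APP and at 5.73, 11.9 and 28.5 CPM in non-Tg samples. The non-Tg range enclosed that of PS2APP, and the log2 difference was 0.20 ± 0.31 (95% interval -0.44 to 0.84; edgeR adjusted p = 0.868). The highest non-Tg value was that of non-Tg 13, the library with the highest immediate early gene level. Without those 4 libraries (PS2APP 1 and 4, non-Tg 9 and 13) the log2 difference was 0.70 (adjusted p = 0.399).

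Neither gene of an iron regulatory protein passed the test. Aco1 (chr4:40143265-40199009), the cytosolic aconitase that becomes an RNA-binding protein when it loses its iron-sulfur cluster, was at 20.4, 26.8 and 30.5 CPM in PS2APP and at 13.3, 23.1 and 40.4 CPM in non-Tg samples. The PS2APP range lay inside the non-Tg range, with a log2 difference of -0.04 ± 0.24 (edgeR adjusted p = 0.979). Ireb2 (chr9:54862658-54912534), whose protein is degraded when iron is plentiful, was at 128, 215 and 282 CPM in PS2APP and at 91.4, 151 and 252 CPM in non-Tg samples. Of the PS2APP samples 7 of 9 lay above the non-Tg median, and the fold was 1.31, a log2 difference of 0.38 ± 0.21 (95% interval -0.06 to 0.83; edgeR unadjusted p = 0.0873, adjusted p = 0.507).

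**Figure D3:**
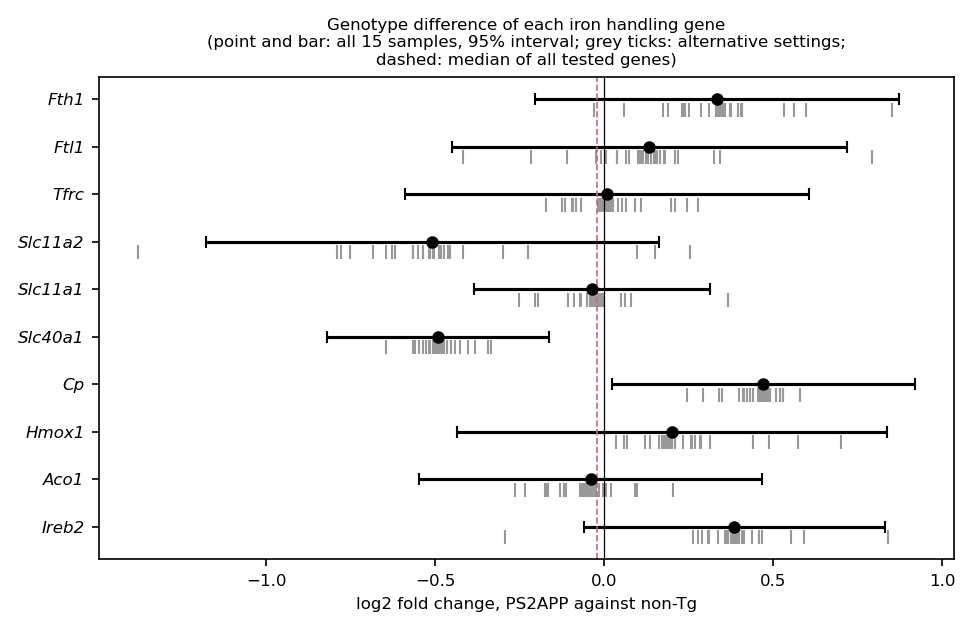
Log2 fold change of each iron handling gene, PS2APP against non-Tg, from edgeR's quasi-likelihood fit with 95% intervals, grey ticks for the alternative settings and a dashed line at the median of all genes tested. The intervals of Slc40a1 (-0.82 to -0.16) and Cp (0.02 to 0.92) exclude 0 before adjustment for the number of genes, and Slc11a2 changes sign when non-Tg 5 is left out.

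Between ages the differences of these genes did not pass the test either. Of the 10, 0 were called for 15 against 14 months, as for all genes (0%), and 2 had an unadjusted p below 0.05, Slc11a2 and Hmox1, against 7.95% of all genes. In limma-voom 1 of the 10 did, against 1531 of all 13994 genes. DESeq2 called 12 of all genes for age, and none of these 10. Hmox1 was at 21.5 ± 4.81 CPM (SD, n = 4) at 14 months and 12.97 ± 4.61 CPM (n = 5) at 15 months in PS2APP, and at 18.8 ± 13.7 CPM (n = 2) and 11.2 ± 4.74 CPM (n = 4) in non-Tg samples. Its log2 difference between ages was -0.74 ± 0.30 (edgeR unadjusted p = 0.0228, adjusted p = 0.587), and without non-Tg 13 it was -0.49. That of Slc11a2 was -0.91 ± 0.32 (adjusted p = 0.565), and without non-Tg 5, a 14-month sample, -0.15 ± 0.21.

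Ireb2 was the gene whose genotype difference varied most plainly with age among those not set by 1 library. At 15 months all 5 PS2APP samples (160 to 282 CPM) lay above all 4 non-Tg samples (91.4 to 156 CPM), as did 4.54% of genes in one direction or the other. At 14 months the 4 PS2APP samples were at 128 to 234 CPM and the 2 non-Tg samples at 202 and 252 CPM. The lower of these 2 was non-Tg 13, of male pattern and highest in immediate early genes. The higher was non-Tg 5, the library far from the others in Slc11a2. The part of these traits in the age pattern of Ireb2 was not tested. Fitted alone, the log2 difference was 0.84 at 15 months (edgeR adjusted p = 0.143) and -0.29 at 14 months (adjusted p = 0.788). The difference between them was 1.17 ± 0.36 (edgeR unadjusted p = 0.00384, adjusted p = 0.612), beside 7.42% of all genes with an unadjusted p below 0.05 and 0% called. Slc11a2 was the other gene with an unadjusted p below 0.05 (1.52 ± 0.59, adjusted p = 0.652), and without non-Tg 5 its value was -0.58 ± 0.47, with non-Tg 13 then the lone non-Tg sample of 14 months.

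Ferroportin was lower in PS2APP at both ages. At 14 months the 4 PS2APP samples were at 124 to 206 CPM and the 2 non-Tg samples at 249.9 and 290 CPM, without overlap, as for 18.7% of genes. At 15 months the 5 PS2APP samples were at 121 to 202.5 CPM and the 4 non-Tg samples at 171 to 263 CPM. Cp was 0.51 higher on the log2 scale at 14 months and 0.46 higher at 15 months. For Fth1 the values were 0.85 at 14 months and 0.06 at 15 months, and for Ftl1 0.79 and -0.22. None of these within-age differences passed the test across all genes.

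The libraries high in immediate early genes were set apart in 1 of the 10 genes. Cp was at 55.1 CPM in PS2APP 1, 44.9 CPM in PS2APP 4, 29.9 CPM in non-Tg 9 and 47.0 CPM in non-Tg 13, and at 60.1 to 100.2 CPM in the other 11 samples. Within each genotype these were the lowest values, a pattern held by 38 of the 13994 genes tested (0.272%); 118 (0.843%) were highest in those libraries within each genotype. Without these 4 libraries the log2 difference between genotypes was 0.40 for Cp (edgeR adjusted p = 0.323), -0.47 for Slc40a1 (adjusted p = 0.187) and 0.59 for Ireb2 (adjusted p = 0.255), with non-Tg 5 then the lone non-Tg sample of 14 months, assumed to vary like the others.

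**Figure D4:**
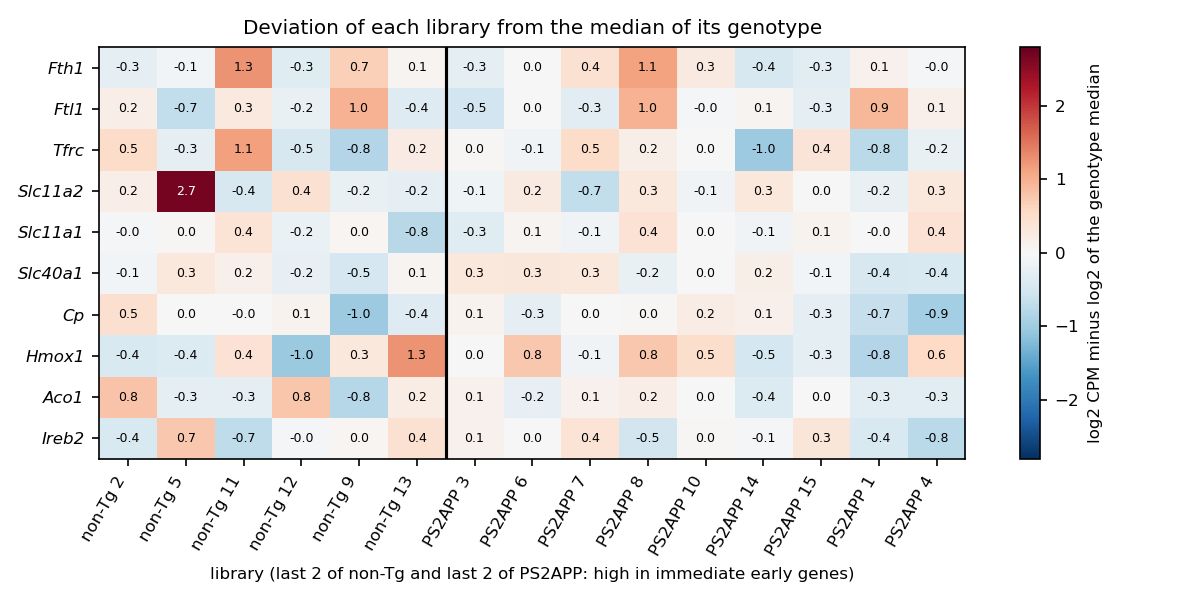
Deviation of each iron handling gene in each library from the median of its genotype, in log2 CPM, with the libraries high in immediate early genes as the last 2 columns of each genotype. Slc11a2 in non-Tg 5 is the largest deviation, and Cp is low in those last columns of both genotypes.

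Within PS2APP samples no iron handling gene followed the plaque-associated genes closely enough to pass a test. Over the 9 samples, Pearson's r with the mean log2 level of the plaque-associated list was 0.57 for Fth1 (rho 0.58), 0.55 for Cp (rho 0.32), 0.53 for Aco1 (rho 0.68) and 0.51 for Hmox1 (rho 0.57), rho being Spearman's. The exact two-sided permutation p for r was 0.116, 0.126, 0.152 and 0.166 in that order. Without the 2 samples farthest from the median score r was 0.15 for Fth1, 0.12 for Cp, 0.16 for Aco1 and 0.88 for Hmox1 (exact permutation, adjusted p = 0.0734 for Hmox1), so the first 3 rest on those samples. Adjusted over the 10 relations, the lowest exact permutation p was 0.416 for Pearson's r and 0.301 for Spearman's rho. The coefficients of Cp, Slc40a1 and Ireb2 turned negative (-0.37, -0.35 and -0.65) without PS2APP 1 and 4, both high in immediate early genes, and so rest on those samples. The same omission raised r to 0.74 for Fth1, 0.75 for Ftl1, 0.80 for Slc11a1 and 0.85 for Hmox1, with a lowest adjusted p of 0.0972 (exact permutation). For Ftl1, at 0.15 over all 9, leaving out the 2 farthest samples instead gave -0.43.

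Among the 10 genes themselves, the 2 strongest negative relations were those of Ftl1 with Slc40a1 and with Ireb2, and only the latter passed, by Spearman's rho alone. The pairs were examined after the data were seen, and the Ftl1 counts are uncertain as described above. With the mean of each genotype removed, over 15 samples and 45 pairs, Pearson's r between Ftl1 and Slc40a1 was -0.72 (permutation p = 0.00298, adjusted p = 0.134) and Spearman's rho -0.67 (adjusted p = 0.178). It was -0.70 within PS2APP and -0.75 within non-Tg samples, and -0.63 without the 2 farthest samples. Between Ftl1 and Ireb2 r was -0.64 (permutation p = 0.00964, adjusted p = 0.145) and rho -0.81 (adjusted p = 0.0166). Without the 2 farthest samples r for that pair was -0.76. Age was not removed from these relations, and its part in them was not tested. In non-Tg samples the mean of Ftl1 was 21.0 CPM at 14 months and 38.5 CPM at 15 months, and that of Ireb2 227 and 126 CPM. In PS2APP samples the means were 35.6 and 33.4 CPM for Ftl1 and 182 and 228 CPM for Ireb2. The 2 strongest positive relations were those of Cp with Aco1 and with Slc40a1. For Aco1 r was 0.65 (permutation p = 0.00872, adjusted p = 0.145) and rho 0.57, and for Slc40a1 r was 0.60 (permutation p = 0.0176, adjusted p = 0.163) and rho 0.33. Without the 2 farthest samples r was 0.32 and 0.34 in that order. The ferritin chains followed with an r of 0.58 (permutation p = 0.023, adjusted p = 0.176) and a rho of 0.46, and r was 0.45 without the 2 farthest samples. By Pearson's r, 0 of 45 pairs passed after adjustment and 8 had an unadjusted p below 0.05.

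The genes most alike to Fth1 and to Slc40a1 were taken as the 5 with the highest Pearson's r. Over the 15 samples with genotype means removed, among 7871 genes of sufficient level, r with Fth1 was 0.90 for Rps3, a ribosomal protein, 0.90 for Eef1b2, a translation elongation factor, 0.89 for Npc2, the lysosomal cholesterol carrier, 0.89 for the pseudogene Rpl14-ps1 and 0.89 for an identifier without a matched name. With Slc40a1 it was 0.92 for Hnrnpd, an RNA-binding protein, 0.91 for Zfp715, 0.90 for Paip1, which binds the poly(A)-binding protein, 0.89 for Gt(ROSA)26Sor and 0.89 for Zfp160. These are descriptions over samples that share sorting and depth, without a test.

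The wider iron pathway gave no called gene either. Of 80 other iron genes in 7 lists, 60 were tested and 0 were called in either direction by edgeR's quasi-likelihood test, DESeq2 or limma-voom, with 6, 6 and 4 at an unadjusted p below 0.05. Of all 13994 genes, 165, 390 and 200 were called in that order, and 1635, 1858 and 1751 had an unadjusted p below 0.05. The log2 differences of the 60 other iron genes had a median of -0.04, and 24 of 60 were positive. Heme synthesis, transport and degradation had the lowest median of the lists, -0.22, with 4 of 16 positive. The regulators had the highest, 0.17, with 3 of 6 positive.

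Among the genes with the smallest adjusted p in each list, the ubiquitin ligase Marchf8, which removes the transferrin receptor from the cell surface, was at a mean of 65.0 CPM in PS2APP and 43.8 CPM in non-Tg samples, a log2 difference of 0.57 ± 0.19 (edgeR adjusted p = 0.177). Epas1, the hypoxia-inducible factor whose message itself is known to carry an iron-responsive element and which is abundant in endothelium, was at 13.2 and 26.8 CPM (-0.95 ± 0.39, adjusted p = 0.330). Hfe, the hemochromatosis protein that binds the transferrin receptor, was at 104 and 138 CPM (-0.37 ± 0.16, adjusted p = 0.348), and App, the amyloid precursor gene, of which PS2APP mice also carry a transgene, at 209 and 169 CPM (adjusted p = 0.623). Of the heme genes, the exporter Abcg2 was at 55.2 and 73.3 CPM (adjusted p = 0.327) and the constitutive heme oxygenase Hmox2 at 55.6 and 73.6 CPM (adjusted p = 0.360). Of the iron chaperones of ferritin, Pcbp2 was at 230 and 264 CPM (adjusted p = 0.623) and Pcbp1 at 96.4 and 98.4 CPM (adjusted p = 0.982). Of the uptake genes, Slc39a14, a metal importer, was at 27.5 and 35.96 CPM (adjusted p = 0.670), and the reductase Steap3 at 2.62 and 6.39 CPM (adjusted p = 0.488), with its highest value, 21.3 CPM, in non-Tg 5. Of the mitochondrial genes Cisd1 was at 6.28 and 9.75 CPM (adjusted p = 0.482) and Cisd2 at 162 and 133 CPM (adjusted p = 0.683). Of the ferroptosis genes Txnrd1, a thioredoxin reductase, was at 33.7 and 27.4 CPM (adjusted p = 0.697), and Acsl4, which makes peroxidation-prone lipids, at 200.2 and 173 CPM (adjusted p = 0.748).

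**Figure D5:**
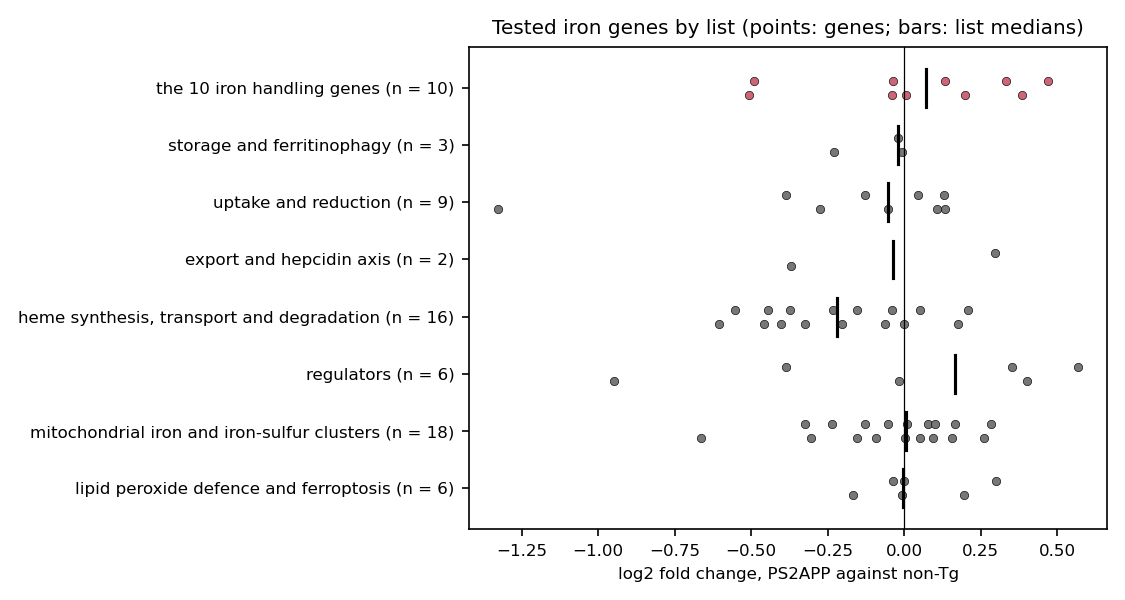
Log2 fold change, PS2APP against non-Tg, of the iron handling genes and of the 60 tested genes in 7 lists of other iron genes, 1 point per gene. None was called, and the heme list has the lowest median (-0.22).

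Without the filter on low counts, 77 of the 80 other iron genes were tested and 2 were called, a share near the 2.5% of all genes called in that fit, both lower in PS2APP and named here after their values were seen: Lcn2, which binds bacterial iron carriers, and Ltf, an iron-binding protein of neutrophil granules. Lcn2 had 3 reads over the 9 PS2APP and 88 over the 6 non-Tg samples (edgeR adjusted p = 0.00167), and Ltf 2 and 89 reads (adjusted p = 9.6e-04). For each the highest value was in non-Tg 13, at 6.73 and 6.60 CPM. The summed level of 8 monocyte and neutrophil markers was highest in that library as well, 102 CPM, against 26.1 to 48.1 CPM in PS2APP; its part in these differences was not tested.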

How the data were processed

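RNA of sorted cells was sequenced in 15 samples. The authors deposited whole-number counts of uniquely aligned reads per NCBI Gene identifier and, beside them, RPKM values normalized with size factors, per the file headers; how those factors were computed is not given in the sources used here. The submitters' processing notes name GSNAP and the build GRCm38, without versions. Neither the library kit, its strandedness nor the annotation is given in the sources used here, so reads of overlapping antisense genes cannot be told apart.

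Counts were tested with edgeR 4.0.16 (R 4.3.3): TMM scaling, the default count filter by genotype, a quasi-likelihood fit of genotype and age, and Benjamini-Hochberg adjustment over all 13994 genes, called below 0.05. Standard errors come from the log2 fold change and its F value. CPM are TMM-scaled; logged CPM use a prior count of 2. RPKM gave levels and, as log2(RPKM + 1), one alternative in limma 3.58.1. DESeq2 1.42.0, limma-voom, other scaling, filters, covariates and left-out libraries were the other alternatives. No pair of samples in a group agreed within sampling noise. The fit was tested on simulated data first, where it recovered 36% of 2-fold and 75% of 4-fold changes, with 5.13% false calls. Symbols and pseudogenes were matched through RefSeq (GRCm38.p6), which matched 31049 of 36528 identifiers, all 10 iron handling genes among them.

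The genes and all lists were chosen with earlier results of these data known. Of the other iron genes, those called or up to 2 per list with the smallest adjusted p are named, and for Fth1 and Slc40a1 the 5 genes most alike with a mean log2 CPM of at least 4. The pairs of iron genes, the neighbours of Slc11a2 and the joint omission of non-Tg 5, PS2APP 8 and non-Tg 11 were added after the data were seen.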

Additional observations from a re-analysis of the deposited data

Results flagged for a closer look

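Of 20 groups of values examined (10 genes in 2 genotypes), 2 held a sample far from the others by Dixon's criterion at the 95% level, which chance meets in about 1 in 20 groups. Fth1 was at 2532 CPM in PS2APP 8 against 1557 CPM in the next of 9 samples, a gap of 0.582 of the whole range (critical value 0.493). Slc11a2 was at 308 CPM in non-Tg 5 against 65.1 CPM in the next of 6 samples, a gap of 0.891 of the range (critical value 0.625).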

How the results depend on the processing

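None of the 10 iron handling genes was called under any of the 30 alternatives for the genotype comparison. Slc40a1, Cp and Hmox1 kept their direction in all 30, Fth1 and Ireb2 in 29. The number of all genes called, 165, was 648 with no count filter, 390 with DESeq2, 13 with the neuron score and 86 with the oligodendrocyte score as covariate, 50 at 14 months alone and 65 at 15 months alone, and 118 to 188 with single libraries left out. For the genotype-by-age term DESeq2 called 6 genes against 0, and single omissions 0 to 3 (3 without non-Tg 5, 1 without non-Tg 11); for age DESeq2 called 12 and omission of the 4 libraries high in immediate early genes 1, against 0. The cause was not tested.

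Log2 differences that changed sign were as follows. With the neuron score, which did not overlap between genotypes, Fth1 was at -0.032, Ftl1 at -0.42 and Tfrc at -0.019. At 15 months alone Ftl1 was at -0.22, Tfrc at -0.12 and Slc11a2 at 0.10; at 14 months alone Slc11a1 was at 0.37, Aco1 at 0.20 and Ireb2 at -0.29. Without non-Tg 5, PS2APP 8 and non-Tg 11 together, an alternative chosen after seeing the data, Ftl1 was at -0.11, Slc11a1 at 0.080 and Slc11a2 at 0.15. Tfrc was at -0.0059 without the age term, -0.17 with an Xist to Y-linked ratio as covariate and -0.011 without the 4 libraries; Aco1 was at 0.019 with that ratio and 0.0060 in limma on log2(RPKM + 1), and Slc11a1 at 0.050 in limma-voom. With single libraries left out the ranges were -0.026 to 0.34 for Ftl1, -0.13 to 0.28 for Tfrc, -0.20 to 0.061 for Slc11a1, -0.69 to 0.25 for Slc11a2 and -0.17 to 0.10 for Aco1. Correlations with the plaque-associated score turned to -0.43 for Ftl1 without the 2 farthest samples, and to -0.35 for Slc40a1, -0.65 for Ireb2 and -0.37 for Cp without PS2APP 1 and 4.

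No paired analysis was possible because the labels used here give no pairing of samples between the genotypes.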
